A study of Mus musculus with 3 samples.

Results

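The genes described here are 100 noncoding genes annotated as antisense, 96 of them overlapping a gene on the opposite strand, that were present at higher levels in chromatin-associated RNA of mouse macrophages. A gene was taken when every transcript listed for it had the type antisense and its level in TPM (a read count scaled for transcript length and library total) was at least 5 in all 3 libraries. Airn, Kcnq1ot1, Tsix, Epb41l4aos and the Snhg genes were left out by name. Of 2943 antisense genes considered, 100 (3.40%) met the limit, against 6076 of 55536 annotated genes of any kind (10.9%). The TPM of all 3 libraries chose the genes, so their levels are a description and carry no test.

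The cells were bone-marrow-derived macrophages, primary cells grown from marrow of C57BL/6J mice, treated with lipid A at 100 ng/ml for 20 min. Lipid A is the part of bacterial endotoxin that Toll-like receptor 4 senses. RNA was taken from the chromatin fraction, depleted of ribosomal RNA and sequenced as total RNA in 3 libraries labelled as biological replicates 1, 2 and 3, made from 1000, 250 and 500 ng of RNA. All 3 form 1 group with no untreated cells, so no value here is a response to lipid A, and the labels do not say whether the replicates came from separate animals. Sex and age were not recorded.

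Antisense genes are transcribed from the strand opposite a gene, either from a start that points away from that gene's own promoter, or from within or beyond its body. Many of their transcripts stay near the chromatin where they are made, and RNA from a chromatin preparation is rich in unspliced and unfinished transcripts. Because reads of a gene and of its antisense partner differ only in strand, their separation rests on a strand-aware count. No label or file header states whether strand was used in counting, so reads of the partner cannot be told apart from antisense reads wherever exons overlap. The same holds for unspliced reads of the partner where an antisense gene lies in its body without shared exons. In bulk RNA, fewer cells that transcribe a gene and less RNA per cell cannot be told apart either.

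Sequence at the start of 4 of the genes is printed below. These were picked by hand for contrast, so they do not show how much promoters of the set differ. The windows are from RefSeq on GRCm38.p6, 250 bases before to 50 after the RefSeq start. They run 5′ to 3′ on the gene's strand, with CG pairs in capitals. F630028O10Rik (chrX:96239676-96239975, plus strand) has no opposite-strand gene, Tug1 (chr11:3648765-3649064, minus strand) faces the start of Morc2a 377 bases away, Gm26740 (chr10:22302789-22303088, minus strand) lies in the body of a gene that was nearly silent, and Gm7854 (chr5:43235305-43235604, minus strand) was among the most variable.
F630028O10Rik: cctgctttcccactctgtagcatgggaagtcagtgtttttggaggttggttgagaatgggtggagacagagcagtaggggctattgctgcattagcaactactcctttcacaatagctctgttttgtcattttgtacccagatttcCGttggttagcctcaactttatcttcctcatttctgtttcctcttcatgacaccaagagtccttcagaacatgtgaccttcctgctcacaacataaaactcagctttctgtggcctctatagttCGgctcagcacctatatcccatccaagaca
Tug1: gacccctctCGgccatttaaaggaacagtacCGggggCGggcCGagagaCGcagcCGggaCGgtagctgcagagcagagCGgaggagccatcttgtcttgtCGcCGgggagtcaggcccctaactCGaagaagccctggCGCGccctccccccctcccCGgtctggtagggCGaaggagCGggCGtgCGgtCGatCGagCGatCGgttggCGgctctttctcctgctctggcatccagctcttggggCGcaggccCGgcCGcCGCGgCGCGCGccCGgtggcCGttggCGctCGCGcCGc
Gm26740: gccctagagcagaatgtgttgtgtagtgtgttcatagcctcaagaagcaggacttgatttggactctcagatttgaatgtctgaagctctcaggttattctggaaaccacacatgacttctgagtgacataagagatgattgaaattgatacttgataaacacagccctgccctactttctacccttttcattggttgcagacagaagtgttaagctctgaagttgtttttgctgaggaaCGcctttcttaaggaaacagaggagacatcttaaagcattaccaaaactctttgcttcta
Gm7854: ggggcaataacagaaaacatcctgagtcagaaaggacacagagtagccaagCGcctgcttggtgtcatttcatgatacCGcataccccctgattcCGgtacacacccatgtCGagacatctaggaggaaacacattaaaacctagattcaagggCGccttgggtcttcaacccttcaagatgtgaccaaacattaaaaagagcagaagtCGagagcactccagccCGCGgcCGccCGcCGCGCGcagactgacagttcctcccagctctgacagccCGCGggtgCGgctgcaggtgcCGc
The windows hold 2, 37, 1 and 17 CG pairs in that order, with a GC content of 45.3%, 71.3%, 41% and 55.7%. The RefSeq start of Tug1 lies 859 bases inside the GENCODE gene, and the other 3 starts lie within 3 bases of it.

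RefSeq gave a promoter for 31 of the 100 genes, and for 24 of these the start was within 500 bases of the GENCODE start. The median window of those 24 held 3.5 CG pairs, against 13 over all 16774 genes with a start that close and 16 over 13809 protein-coding genes. Motifs were searched on both strands. CCAAT was present in 9 of the 24 (37.5%, against 38.4% of all windows), TATAAA in 2 (8.33% against 11.8%) and TGANTCA, the site that AP-1 factors bind, in 5 (20.8% against 7.04%). A κB site by its consensus was present in 1 (4.17% against 4.79%), and neither TGACGTCA (2.47% of all windows) nor GAGGAAGT (3.34%) was found in any of the 24. In the windows printed, Gm26740 has CCAAT at -60 to -56 and Gm7854 has TGANTCA at -228 to -222, counted from the start. The windows compared were not matched for composition, with a median GC content of 49.7% in the 24 and 56.3% in all windows. These matches are descriptions of letters in a window, over few genes.

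F630028O10Rik also carries a microRNA: the hairpin of miR-223, a microRNA abundant in myeloid cells, lies on the same strand in its exon, at chrX:96242817-96242926. Its mature forms are shown from RefSeq with the seed, bases 2 to 8, in capitals, since the annotated exon of the host spans the same bases. Read coverage of these bases was not examined.
miR-223-5p: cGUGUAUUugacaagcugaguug
miR-223-3p: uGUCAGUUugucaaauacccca
The 2 seeds differ. Total RNA libraries of this kind do not measure the mature microRNA, so the levels below are those of the host gene.

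Library depth and cell identity were as follows. The deposited expected counts summed to 16317439, 16245280 and 12439931 in replicates 1, 2 and 3, and the 100 genes held 0.323%, 0.214% and 0.317% of them. A gene of the set had a median expected count of 273, 188 and 174, and the lowest was 21, 14 and 15, so counting error is large at the lower end. All 12 macrophage markers listed (Csf1r, Adgre1, Cd68 and others) were at 1 TPM or more in every library. Summed markers of T and NK, B, neutrophil, erythroid, mast and fibroblast cells did not exceed 1.16 TPM in any library, and 1 of 4 endothelial markers was at 1 TPM or more in all 3.

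The 100 genes ranged from 5.26 to 156.8 TPM in mean level, with a median of 8.90, 8.45 and 13.2 TPM in replicates 1, 2 and 3 (10.2 ± 2.60, SD, n = 3). Of them, 54 had a mean of at least 10 TPM, 17 of at least 20, 3 of at least 50 and 1 of at least 100. The other 2843 antisense genes had a median of 0.02 TPM, 1340 of them were listed at 0 in every library, and 373 reached 1 TPM in all 3. Most of the set has no assigned function: 94 carry clone-type names, 5 are named for the gene they oppose, and the remaining gene is Tug1. Just inside the limit, Gm49030 had 5.06, 8.27 and 7.41 TPM and Gm15956 had 5.07, 7.52 and 7.55 TPM. Just outside it, Gm15819 had 4.82, 4.98 and 4.91 TPM and Gm15261 had 5.48, 4.90 and 14.34 TPM, so the first was just under the limit in every library and the second missed it in 1 library. Of the genes left out by name, Airn (17.66, 22.58 and 26.95 TPM) and Kcnq1ot1 (11.23, 13.63 and 19.87 TPM) would have met the limit.

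**Figure D1:**
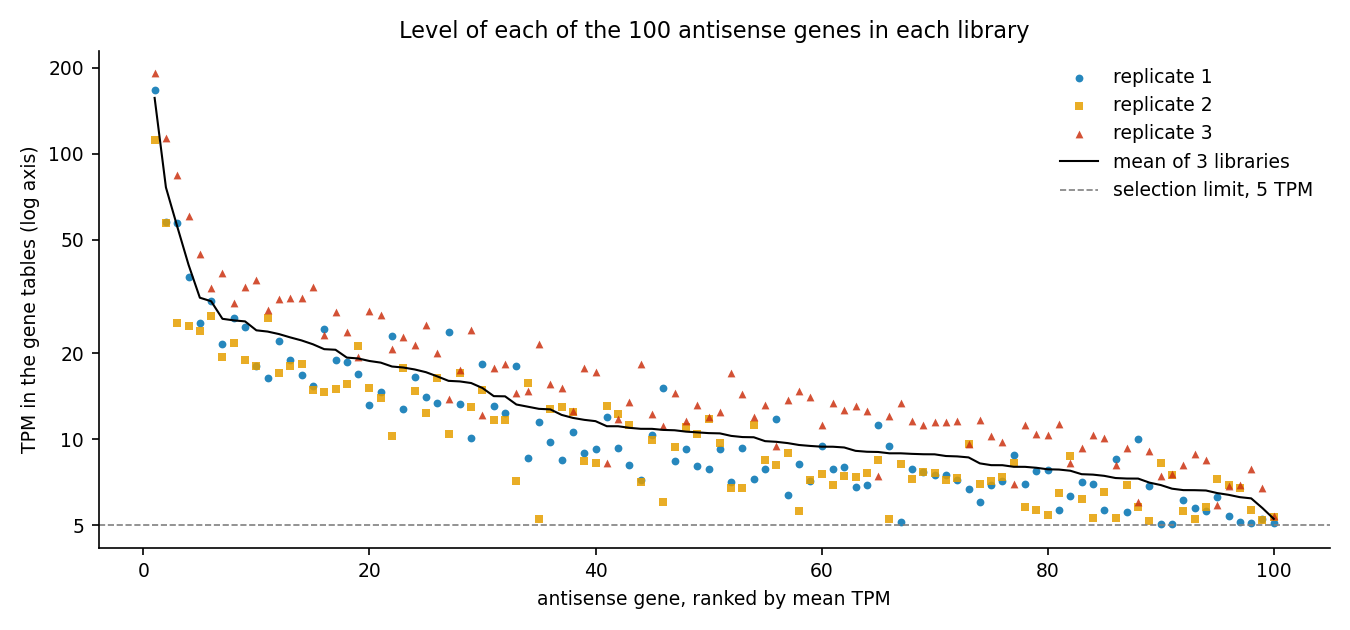
Level of each of the 100 antisense genes (TPM, log axis) by rank of its mean, with 1 point per library, the mean of 3 libraries as a line and the selection limit of 5 TPM dashed. Replicate 3 gave the highest point for 81 of the 100 genes, and 3 genes had means above 50 TPM.

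The highest member was Gm40578 (chr12:111450405-111500840, minus strand), opposite Tnfaip2, a gene induced by tumour necrosis factor. Gm40578 had 167.76, 111.54 and 191.16 TPM in replicates 1, 2 and 3 (156.8 ± 40.9, SD, n = 3), and replicate 2 was the lowest. Tnfaip2 had 958.5, 510.4 and 832.8 TPM, and was also lowest in replicate 2. The partner exceeded the antisense gene in every library, by 2.28 ± 0.21 on the log2(TPM + 0.1) scale, and 314 of the 1068 exonic bases of Gm40578 (29.4%) were shared with its exons. Nearly all of the gene's level came from isoform Gm40578-202.

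F630028O10Rik (chrX:96239926-96243636, plus strand), the host of miR-223, was second, with 57.82, 57.38 and 113.39 TPM (76.2 ± 32.2). Replicates 1 and 2 were nearly level and replicate 3 stood apart. No annotated gene overlapped it on the opposite strand and none started within 5000 bases, and 4470, 3322 and 4268 expected counts stood behind its values. It was therefore the best covered member without an opposite-strand gene.

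AC119228.1 (chr19:29373417-29384471, minus strand) opposes Cd274, which encodes the checkpoint ligand PD-L1. It had 57.12, 25.60 and 84.06 TPM (55.6 ± 29.3), and Cd274 had 50.94, 31.88 and 70.28 TPM. The antisense gene was higher than Cd274 in replicates 1 and 3 and lower in replicate 2, a mean difference of -0.04 ± 0.31 on the log2 scale, so the pair was not separated by more than its spread. Shared exonic bases made up 10.8% of AC119228.1.

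Gm17056 (chr12:40198656-40201105, plus strand) had 37.01, 24.88 and 60.64 TPM (40.8 ± 18.2). Its start lies 834 bases from that of Lsmem1, a membrane protein gene, with 284 exonic bases shared. Lsmem1 was listed at 0, 0.03 and 0 TPM, so this antisense gene stood above a partner with almost no reads in all 3 libraries. No gene ended within 10000 bases upstream of it on its own strand. Transcription running on from genes of the opposite strand was not examined. On that strand Ifrd1, at 530.7 TPM, overlaps the member Gm7008 (chr12:40222758-40229184).

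Gm7480, Gm46411, Gm45479, 4933423P22Rik and Gm14225 were the next members that lie in the body of another gene without sharing its exons. Their mean levels were 31.3 ± 11.4, 26.4 ± 10.3, 26.1 ± 4.14, 25.9 ± 7.67 and 23.8 ± 6.504 TPM (n = 3 each). The hosts were Lrmda, Rreb1 (a zinc-finger transcription factor), Irf2 (an interferon regulatory factor), Ptprj (a receptor tyrosine phosphatase) and Epb41l1 (a cytoskeletal adaptor), at 43.4, 51.9, 88.0, 26.0 and 60.3 TPM. Ptprj and 4933423P22Rik were level, with a difference of 0.03 ± 0.29 on the log2 scale, and the other 4 hosts were higher than the antisense gene by 0.51 to 1.76. Gm26982, with 30.44, 26.93 and 33.92 TPM, shared only 3 exonic bases with Ghrl, the gene of the hormone ghrelin, and exceeded it (19.5 ± 3.02 TPM) in every library of the gene tables, while in the tables with estimated counts Ghrl was higher, at 83.6 against 28.0 TPM. Tatdn2, at 51.0 TPM, ends 3902 bases upstream of Gm26982 on the same strand. Over the whole set a gene ended within 10000 bases upstream on the same strand for 17 members (17%), and for 16.6% of the other antisense genes.

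By position, 14 members started within 1000 bases of an opposite-strand start (called divergent here). The rule did not check that such starts point apart, and all 14 also shared exonic bases with an opposite-strand gene. For Gm17056, Tug1, 1600020E01Rik, B930036N10Rik, 0610038B21Rik and Gm45472 that gene was the one with the nearby start. By the GENCODE gene bounds these starts therefore overlap and do not point apart. The word divergent stands here for distance only, not for a shared promoter. Of the rest, 40 shared exonic bases with an opposite-strand gene, 42 lay inside or across a gene body without shared exons, and 4 overlapped no opposite-strand gene. Among the other antisense genes the divergent position was more frequent (23.1%, against 14% of the members) and the position in a body less so (32.4% against 42%), while shared exons were as frequent (40.5% against 40%). The divergent share was also lower among members by each other rule tried: 8% against 14.9% within 500 bases, 19% against 30.3% within 2000 bases, 11% against 21.5% by protein-coding genes only and 29% against 38.2% by any transcript start. These shares come from the annotation, which the selection did not use apart from the type, and were compared without a test. Counting the divergent genes, 54 members shared exonic bases, against 58.8% of the other antisense genes. At least 50% of the exonic bases were shared in 6 members, against 11.96% of the others. The members were also longer in exons, with a median of 1341.5 exonic bases against 904, shorter in span, at 3716 against 5775 bases, and more often had 2 or more annotated transcripts (37% against 23.5%). Exonic length enters the TPM itself.

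Tug1, a long noncoding RNA studied for its part in male fertility and retinal development, was the only member of the 100 with a name other than a clone or partner symbol. It had 18.04, 18.09 and 36.09 TPM (24.1 ± 10.4), and Morc2a, a chromatin-silencing ATPase whose start it faces, had 22.49, 34.26 and 39.16 TPM (32.0 ± 8.57). The difference, 0.45 ± 0.42 on the log2 scale, was positive in all 3 libraries. Its level was spread over 8 transcripts, of which Tug1-202 held 37.2% (in the tables with estimated counts the highest isoform held 56.4%).

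E130307A14Rik starts 111 bases from Rev3l, the catalytic subunit of DNA polymerase zeta, and shares exonic bases with Traf3ip2, an adaptor of interleukin-17 signalling. It had 9.27, 8.28 and 17.17 TPM, Rev3l had 13.29, 18.27 and 22.52 TPM and Traf3ip2 had 3.49, 3.98 and 5.72 TPM. In every library it lay between the gene it starts beside and the gene whose exons it overlaps. The other divergent members faced less uniform genes: for Gm7008 and Gm15265 the start in question was that of a microRNA listed at 0, and 8 of the 14 opposite starts belonged to genes at 5 TPM or more.

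Partners were as a rule better expressed than the antisense genes. An opposite-strand partner (the gene sharing most exonic bases, or else most of the gene body, or else the nearest start within 5000 bases) was found for 97 members, and was protein-coding for 95. The partner was higher in all 3 libraries for 79 members, lower in all 3 for 14 and mixed for 4. The median difference was 1.51, 1.78 and 1.61 on the log2(TPM + 0.1) scale in replicates 1, 2 and 3 (1.63 ± 0.14). Over the other antisense genes it was 1.36. Of those, 1340 were listed at 0 in every library, where the difference depends on the 0.1 added, so the 2 medians are not like values. Among the members it was 0.77 ± 0.35 for the 14 divergent ones, 1.80 ± 0.13 for the 40 with shared exons and 1.61 ± 0.18 for the 42 inside or across a body. For some divergent members this partner is not the gene with the nearby start. The limit of 5 TPM applied to the members only, so this comparison is a description. Across the selected genes the levels of members and partners were hardly related (Pearson r = 0.08, Spearman rho = 0.21, n = 97 pairs, which share libraries and in part exons). The selection cut the levels of the members at 5 TPM, so these values do not describe antisense genes as a whole.

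**Figure D2:**
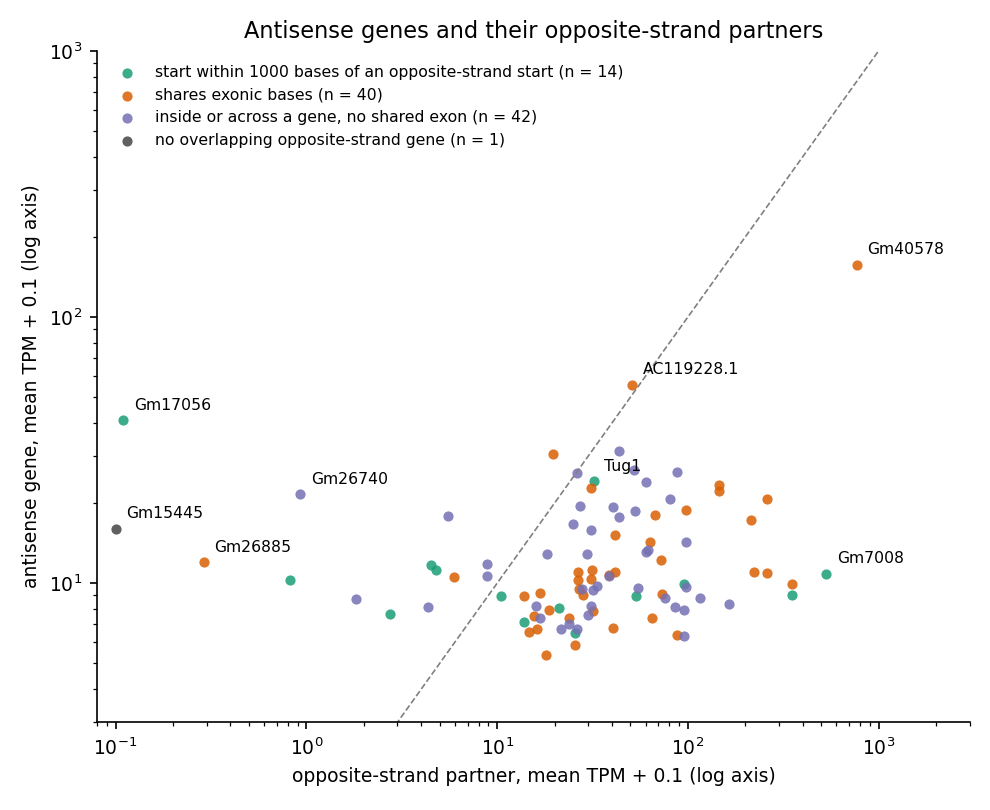
Mean level of 97 antisense genes against that of their opposite-strand partners (mean TPM + 0.1 over 3 libraries, log axes), coloured by position, with equal levels dashed. Most points lie right of the line, where the partner is higher, and the 5 points with partners below 1 TPM, at the left, are Gm17056, Gm26740, Gm26885, Gm15445 and, unlabelled, B930036N10Rik.

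The members that most exceeded their partners were few. Gm15445, which lies on the same strand in the body of Arl8a, had 13.24, 17.04 and 17.55 TPM beside Gm26280, an rRNA gene listed at 0 that it does not overlap. In the tables with estimated counts Gm26280 had 235.1 TPM against 18.7 of Gm15445, so this direction turned there. Gm26885, an antisense gene with 20 transcripts of which Gm26885-202 held 99.9% of the level (in the tables with estimated counts the highest isoform held 50.7%), had 10.59, 12.45 and 12.60 TPM opposite AC163629.2 at 0.35, 0.22 and 0 TPM. Gm26740 had 15.37, 14.93 and 34.24 TPM opposite Raet1e, a ligand gene of the NKG2D receptor, at 0.54, 0.65 and 1.30 TPM. Gm26885 and Gm26740 were above their partners in every library, and also in the mean of the tables with estimated counts (31.0 against 0.651 TPM and 48.0 against 3.15 TPM).

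The largest excess of the partner was seen for Gm7008, Gm2245 and Gm44649. Gm7008 had 8.40, 9.39 and 14.47 TPM against 542.8, 353.8 and 695.4 TPM of Ifrd1, a transcriptional co-regulator, a difference of 5.598 ± 0.39 on the log2 scale. Gm2245 was opposite Fyb, an adaptor of immune receptors, which was higher by 5.32 ± 0.57. Gm44649 was opposite Iqgap1, a cytoskeletal scaffold, which was higher by 5.16 ± 0.42. The 3 shared 21.1%, 9.45% and 17.3% of their exonic bases with these partners.

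Several partners carried more than 1 member, so the 97 pairs are not independent: 8 partners accounted for 17 members. Arhgap10 had 3 (0610038B21Rik, Gm45285 and Gm45406), and Epb41l1, Ikbke, Lrmda, Mast4, Pi4kb, Sdc3 and Zfp710 had 2 each. Members with the symbol of their partner, chosen by name, gave a mixed picture. Kdm6bos had 18.36, 14.85 and 12.14 TPM, below Kdm6b, a histone H3K27 demethylase, at 41.6 ± 2.81 TPM. Dnmt3aos (10.9 ± 1.22 TPM) was below Dnmt3a, a DNA methyltransferase, by 4.32 ± 0.33 on the log2 scale, Zmiz1os1 was below Zmiz1 by 3.10 ± 0.22 and Galnt6os below Galnt6 by 1.14 ± 0.43, a direction that turned in the tables with estimated counts (17.8 against 16.7 TPM). Rab10os, with 9.25, 9.71 and 12.50 TPM, was above Rab10, a small GTPase of membrane traffic, at 4.42, 3.84 and 9.30 TPM.

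Antisense partners of genes with a role in the early macrophage response were counted from 6 lists. In the Toll-like receptor 4 pathway, 6 antisense genes opposed a listed gene and 3 of them were members, against 95 of 2717 opposite any protein-coding gene. The 2717 were not matched for the level of the partner, which went with reaching the limit (below). Partners of antisense genes outside the set had a median of 0.667 TPM. With so few genes, 2 of them on the same partner, these numbers do not set the pathway apart. Gm28913 and Gm28914 both lie opposite Ikbke, a kinase that activates interferon regulatory factors, and Gm43964 lies opposite Irak2, a kinase of the receptor complex. Gm28913 had 18.92, 14.99 and 27.83 TPM and Gm28914 had 15.17, 6.05 and 11.13 TPM. Ikbke had 267.1, 245.9 and 268.0 TPM. Both antisense genes, close neighbours on the same strand, were lowest in replicate 2.

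Gm43964 had 6.40, 8.98 and 13.71 TPM from only 21, 15 and 15 expected counts, and the credibility bounds in the authors’ tables, whose level is not stated, reached from 3.90 to 9.21 TPM in replicate 1 and from 7.19 to 19.9 TPM in replicate 3, so its libraries overlapped. Irak2 had 33.2 ± 4.26 TPM, above Gm43964 here but below it in the tables with estimated counts (83.1 against 96.6 TPM). Of 10 antisense genes opposite genes of the early NF-κB response, Gm40578 (Tnfaip2) and Gm45479 (Irf2) were members. Of 5 opposite immediate early genes, 1700019L13Rik was a member, with 9.45, 7.55 and 11.26 TPM opposite Csrnp1, a transcription factor, at 30.44, 14.34 and 35.26 TPM. Of 10 opposite genes of transcription and RNA processing, Gm29361 was a member (17.2 ± 6.98 TPM), below Rbm25, a splicing regulator, by 3.68 ± 0.34 on the log2 scale. None of the 3 opposite interferon and STAT genes, and none of the 6 opposite macrophage lineage and lysosome genes, was a member.

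Reaching the limit went with the level of the gene on the other strand. Partners of members had a median of 31.2 TPM, partners of the other antisense genes 0.667 TPM, and 70 members opposed a gene at 20 TPM or more. Among all antisense genes in a gene body without shared exons, 0.186% of 539 reached the limit where the host was under 1 TPM, 1.38% of 145 at 1 to under 5, 4.35% of 138 at 5 to under 20, 18.5% of 92 at 20 to under 50 and 37.8% of 37 at 50 to under 100. At hosts of 100 TPM or more it was 15.4%, of only 13 genes. Among those sharing exons the shares were 0.171% of 586, 0 of 179, 4.04% of 223, 10.3% of 136, 19.0% of 42 and 30.8% of 26. Thus the share was low under silent hosts in both positions and higher under active ones, without a test.

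The same was counted for sense intronic genes, noncoding genes inside an intron on the host's own strand, where strand cannot separate reads from the host's unspliced RNA. With hosts at 20 TPM or more, 23.2% of 142 antisense genes in a body, 14.7% of 204 sharing exons and 19.3% of 83 sense intronic genes reached the limit. Their median levels under such hosts were 3.01, 2.00 and 2.39 TPM. Antisense and same-strand genes thus lay in a similar range, and the part of unspliced host RNA in the antisense values was not tested.

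**Figure D3:**
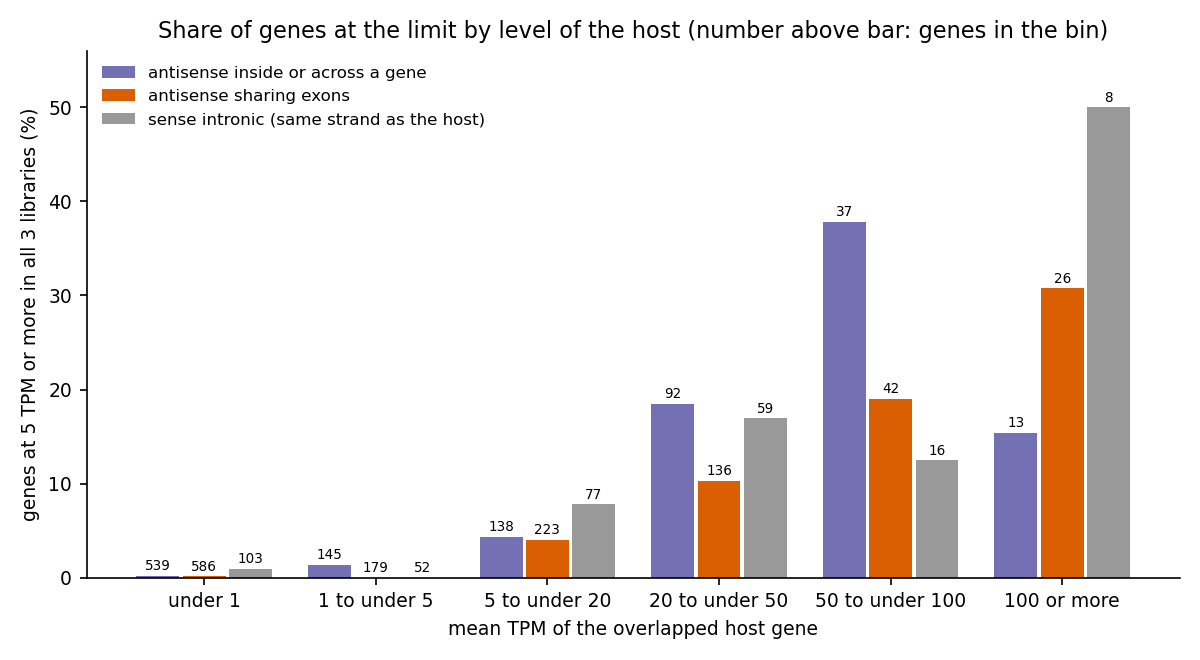
Percent of genes at 5 TPM or more in all 3 libraries, by mean TPM of the host gene, for antisense genes in a body without shared exons, antisense genes sharing exons and sense intronic genes, with the number of genes above each bar. All 3 kinds stay below 1% for hosts under 1 TPM, and the last bins of the first and the last kind hold only 13 and 8 genes.

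Exonic overlap with an active partner did not always go with a level. Of 64 antisense genes with at least 50% of their exonic bases in exons of a partner at 20 TPM or more, 19 were listed at 0 in every library, the median was 0.70 TPM and 6 were members. At 90% or more the numbers were 19 genes, 11 at 0 and 1 member. The member was Gm26716, whose 415 exonic bases all lie in exons of Sdc3, a syndecan. It had 9.31, 6.77 and 14.46 TPM in the gene tables, and Sdc3 had 26.5 ± 6.34 TPM.

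Levels also depended on which of the 2 kinds of deposited tables was read: those with expected counts, used above, and those with estimated counts per transcript. Over the members the tables with estimated counts gave a median of 1.53 times the level of the gene tables, and 1.45 times over all genes at the limit. They were higher for 86 members and lower for 14, at least 2 times as high for 29 and at least 5 times for 5. Gm44649 had 9.80 TPM in the gene tables and 104.5 in the others, Gm43964 had 9.70 and 96.6, and Gm20234, inside Slfn2, a growth-regulating gene of immune cells, had 20.7 and 169.0. In the other direction Gm26716 had 10.2 and 0.659 TPM, and Gm26759, with 83.1% of its exonic bases shared with Irf2bp2, had 11.1 and 9.47. The order of the leading genes changed too: Gm40578 was first in both (156.8 and 178.0 TPM), whereas F630028O10Rik (76.2 and 66.1 TPM) went from rank 2 to rank 8 among the members. The sign of the mean difference from the partner turned for 10 members. The antisense gene became the higher of the pair for 2900089D17Rik, Gm20234, Gm17160, Gm43964 and Galnt6os, and the lower for Gm26982, Gm15445, Gm15356, Gm47689 and Gm15736.

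**Figure D4:**
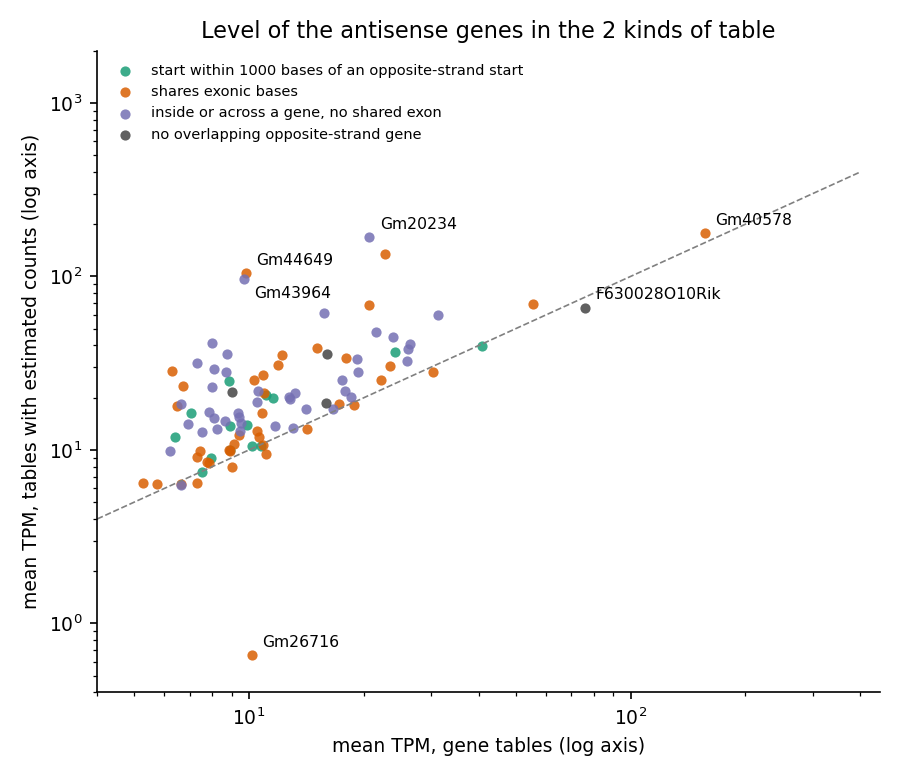
Mean TPM of the 100 antisense genes in the gene tables and in the tables with estimated counts (log axes), coloured by position, with equality dashed. Of the points, 86 lie above the line, and Gm26716 lies far under it.

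Libraries differed in scale, which touched every member. Replicate 3 gave the highest TPM for 81 members and for 87.7% of all genes at the limit, but after rescaling to an equal sum over protein-coding genes 45, 23 and 32 members were highest in replicates 1, 2 and 3, so the order of the libraries depends on the scale. The rescaled shares of all genes at the limit were 25.2%, 35.5% and 39.3%. Protein-coding genes held 15.8%, 18.05% and 24.7% of the TPM. The median coefficient of variation (SD over mean) of a member was 28.0%, against 28.3% for all genes at the limit, and without replicate 3 it was 13.1%, against 14.6%. After rescaling it was 17.8% for the members and 13.8% for all genes at the limit. Across genes, log2 levels of the members correlated between libraries with r = 0.85 (replicates 1 and 2), 0.87 (1 and 3) and 0.85 (2 and 3), n = 100 genes selected on these levels.

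The most and least variable members were not the same on both scales. Gm47917, inside Man1a, a mannosidase of glycoprotein trimming, had 11.51, 5.27 and 21.56 TPM, the largest coefficient of variation (64.3%, and 47.9% rescaled). Gm7854, opposite Cpeb2, a regulator of translation, had 7.18, 7.10 and 18.36 TPM, a value of 59.5% that dropped by rescaling to 35.2%, from only 35, 20 and 31 expected counts. 1700099I09Rik, opposite Mast4, had 7.08, 6.73 and 17.02 TPM. Replicate 3 was high in all 3 genes. Gm16575, opposite Sun2, a protein of the nuclear envelope, had 5.08, 5.34 and 5.37 TPM, a coefficient of variation of 3.03% that became 19.5% after rescaling. For Galnt6os it was 10.6% and 26.9%. By contrast 4930430E12Rik, without an opposite-strand gene, was high in replicate 1 (23.79, 10.40 and 13.86 TPM), at 43.4% and 61.4%.

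**Figure D5:**
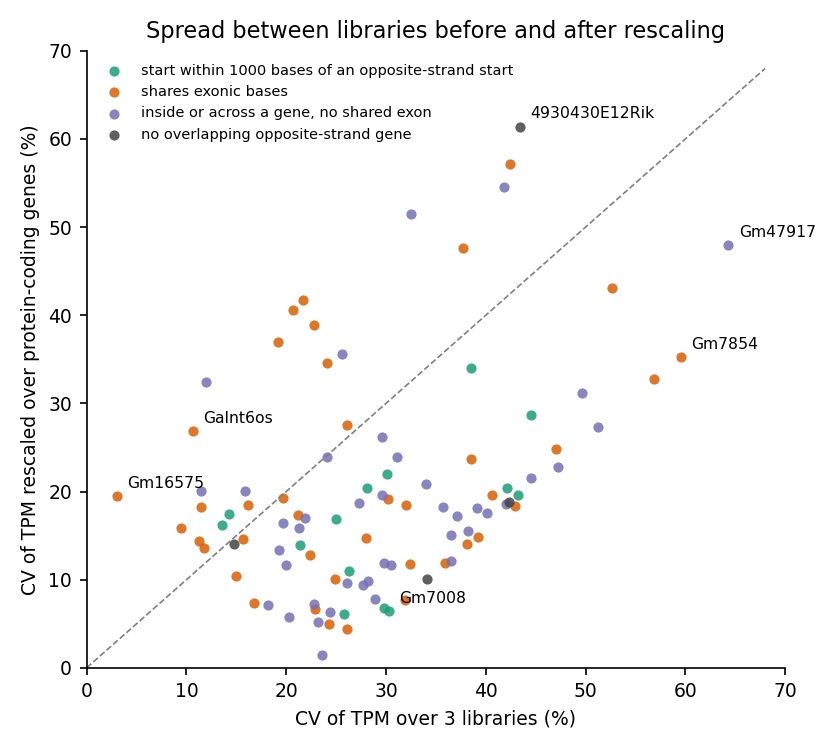
Coefficient of variation of each of the 100 antisense genes over 3 libraries, in TPM (x axis, percent) and in TPM rescaled over protein-coding genes (y axis, percent), coloured by position, with equality dashed. Most points fall below the line, while 4930430E12Rik, Galnt6os and Gm16575 lie above it.

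The level of most members with several transcripts came mainly from 1 of them. Among the 37 members with 2 or more annotated transcripts, the leading isoform held a median of 72.6% of the TPM, against 40.4% among the 5266 genes at the limit with 2 or more transcripts. It held at least 90% in 15 of the 37. In 5 of the 37 the leading isoform had 1 exon, among them that of Gm7854. The genes at the limit include many protein-coding genes with more transcripts each, so these shares are not matched for transcript number.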

How the data were processed

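Chromatin RNA of 3 libraries of 1 group was analysed. Per the file headers, the authors deposited gene and transcript tables with expected counts and TPM, with credibility bounds on the TPM (a signal on the TPM scale, made by the authors and used as deposited), and separate transcript tables with estimated counts and TPM. Per the labels, the genome build was mm10 and the annotation GENCODE M21. No label or header names the aligner, the counting tool or its strand setting. The archive's listing of files names signal of all reads and of unique reads, which were not used here.

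Members, lists and descriptions were chosen with earlier results of these data known. Gene-table TPM was taken as deposited, with no filter beyond the limit of 5 TPM, and estimated-count TPM was summed per gene. Positions, partners and shared exonic bases came from GENCODE M21. Differences used log2(TPM + 0.1). With 1 group and members selected on level, no test was run, and the spread is the SD of 3 libraries, which may be technical. Rescaled TPM has the same sum over protein-coding genes in each library.

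Genes named are the 12 highest members, the 3 highest of each position, the 3 at each extreme of variation, partner difference and table ratio, members opposite a listed gene, and the genes next to the limit. Others named belong to small groups and were chosen after their values were seen. The code was tested on simulated data. Python 3.11.15, pandas 2.3.3, numpy 2.4.6 and matplotlib 3.10.9 were used. Alternatives were other TPM limits, posterior mean TPM, the tables with estimated counts, rescaled TPM, other pseudocounts, other overlap and distance rules, and leaving out each library.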

Additional observations from a re-analysis of the deposited data

How the results depend on the processing

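The number of members, 100, was 268 at a limit of 2 TPM, 33 at 10 TPM, 392 in the tables with estimated counts (97 of the 100 among them) and 508 in TPM rescaled over protein-coding genes. It was 101 to 116 with a library left out and 95 by posterior mean TPM. The median log2 level, 3.41, was 4.24 in the tables with estimated counts and 3.16 to 3.49 with a library left out. Divergent members numbered 14, but 8 with starts within 500 bases and, by alternatives chosen after seeing the data, 29 by any transcript start and 11 by protein-coding genes only. The median coefficient of variation, 28.0%, was 17.8% in rescaled TPM and 13.1% to 30.3% with a library left out, the lowest without replicate 3. The leading isoform's share, 72.6%, was 63.7% in the tables with estimated counts and 70.9% to 73.2% with a library left out. The 508 rest on a lower limit, since protein-coding genes held 15.8% to 24.7% of the TPM and rescaling raised every value. Apart from such changes of the limit, the cause was not tested. The median partner difference stayed at 1.54 to 1.69 under every alternative run. Of 34 named genes, the mean level moved by more than its SD for 23 in the tables with estimated counts and for 1 by posterior mean TPM. Leaving out 1 of 3 libraries cannot move a mean by more than its SD, so that setting decides nothing here. No paired analysis was possible because the labels give 1 group. The lowest counts, 14 to 21 reads by library, limit the precision of Gm17160 and Gm43964, which were not the lowest members in TPM.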
